A study of Mus musculus with 4 samples.

Results

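The genes of the platelet-derived growth factor (PDGF) ligands Pdgfa, Pdgfb and Pdgfd and of the PDGF receptors Pdgfra and Pdgfrb were followed across the cells of the mouse Achilles tendon, to ask which populations hold the transcripts of the signal and which hold those of its receptors. They are 5 of the 15746 genes used from the count table and were taken by name. All 5 were present in each of the 4 libraries. The libraries were made from Achilles tendons of male C57Bl/6 mice aged 6 weeks, and the labels name no treatment and no genetic change. All 4 form 1 group, so the comparisons run between cell populations of the same libraries and not between conditions. How many mice went into each library is not given in the labels. The p-values measure only the spread between these libraries, which edgeR estimates in part from all genes together.

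PDGF ligands are secreted dimers that bind a pair of receptor tyrosine kinases, PDGF receptor alpha (the product of Pdgfra) and beta (the product of Pdgfrb). The A chain binds the alpha receptor, the B chain binds both, and the D chain acts mainly on the beta receptor after a protease has removed its inhibitory domain. In blood vessels, PDGF-B from endothelial cells is known to recruit and hold pericytes, the contractile cells on the outer face of capillaries, through the beta receptor, and the alpha receptor is widely used to mark connective tissue fibroblasts.

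The libraries held 580, 246, 256 and 109 cells, 1191 in all, with a median of between 7440 and 8824 unique molecular identifiers (UMIs, each counting 1 captured transcript) per cell and 1375111 to 5603366 UMIs per library. No cell barcode was shared between libraries. The authors' annotation gives 13 populations: tendon fibroblasts 1 to 3, bursal fibroblasts (from the fluid-filled pad beside the tendon), endothelial cells 1 to 3, pericytes, nerve cells 1 to 3, immune cells and red blood cells. Marker transcripts fitted the names in most cases. The 10 pericyte and smooth muscle markers summed to 23213 CPM (UMIs of a gene per 1000000 UMIs) in pericytes. With libraries pooled, the smooth muscle genes Acta2, Tagln and Myh11 stood there at 8981, 5836 and 5320 CPM. Rgs5 stood at 2501 CPM and Kcnj8 at 67.0 CPM. The authors' name pericytes thus covers cells with smooth muscle transcripts, and each level given for pericytes is that of the whole population. The 7 endothelial markers summed to 6667 CPM in endothelial cells 1 and 5199 CPM in endothelial cells 2. The 5 lymphatic markers summed to 8700 CPM in endothelial cells 3, which had enough cells only in library 1, against 48.2 CPM in endothelial cells 1. The arterial list summed to 949 CPM in endothelial cells 1, 256 CPM in endothelial cells 2 and 889 CPM in endothelial cells 3 (library 1). The venous list summed to 474, 3295 and 859 CPM in the same order. Of the 8 arterial genes, 3 were highest in endothelial cells 1, 4 in endothelial cells 3 and 1 in nerve cells 1. The arterial list therefore does not set endothelial cells 1 apart from endothelial cells 3. The 8 fibroblast markers summed to 12436 CPM in bursal fibroblasts, with the tendon gene Tnmd at 0, against 123047 CPM in tendon fibroblasts 1. The 8 Schwann cell markers, genes of the glia that wrap nerve fibres, summed to 78286, 68234 and 9143 CPM in nerve cells 1, 2 and 3.

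Counting UMIs over all libraries, Pdgfa had 1215 in 404 cells, Pdgfb 1493 in 308 cells, Pdgfd 195 in 135 cells, Pdgfra 1660 in 335 cells and Pdgfrb 1327 in 363 cells. The 3 endothelial populations together carried 85.3% ± 2.88 (SD, n = 4 libraries) of the Pdgfb UMIs of a library and 61.5% ± 6.80 of its Pdgfd UMIs, while they made up 25.8% of its cells. Tendon fibroblasts 1 to 3 carried 82.9% ± 11.0 of the Pdgfra UMIs and bursal fibroblasts another 16.0% ± 11.5. Pericytes, 9.66% of the cells, carried 55.5% ± 24.1 of the Pdgfrb UMIs and 37.4% ± 17.8 of the Pdgfa UMIs. The endothelial share of Pdgfb lay between 82.5% and 89.3% in every library. The pericyte share of Pdgfrb ran from 28.4% in library 3 to 76.2% in library 4, and library 3 is the one with the largest fibroblast share of that gene, 69.5%. A share joins the number of cells of a population with the level per cell, and the number of cells differed between libraries.

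**Figure D1:**
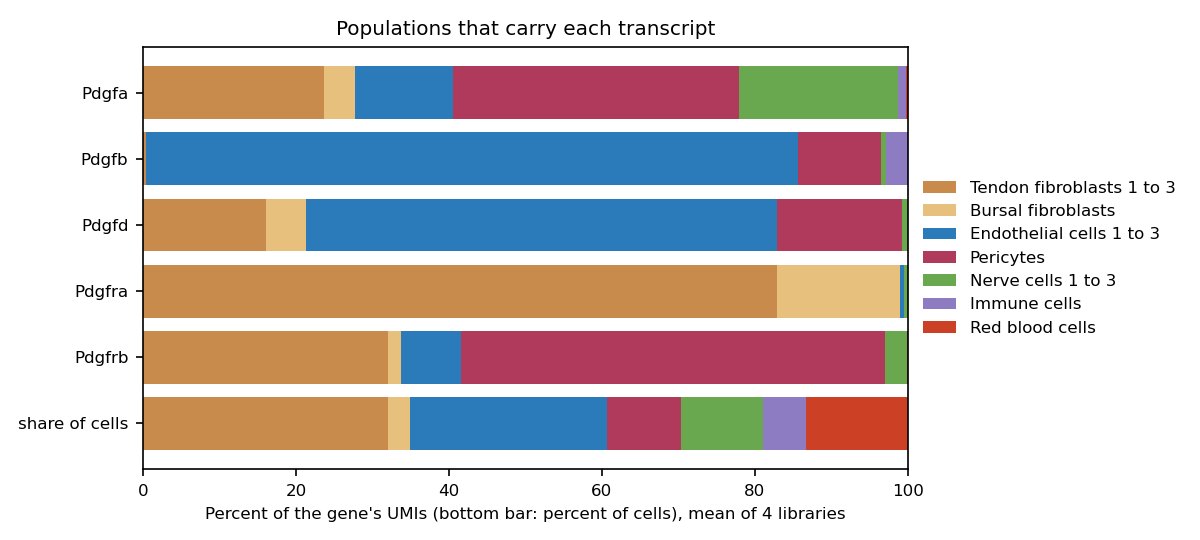
Stacked bars of the percent of each gene's UMIs found in each cell class, averaged over 4 libraries, with the percent of cells in the bottom bar. Endothelial cells take 85.3% of Pdgfb and 61.5% of Pdgfd, fibroblasts most of Pdgfra, and pericytes 55.5% of Pdgfrb.

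Levels are given as CPM of the sum of a library's cells in 1 population, where that sum has 5 or more cells. The chemistry tags transcripts near their 3' end, so the long and short forms of a transcript such as that of Pdgfa cannot be told apart, and no length enters a value. Levels are compared between populations, not between genes. The authors drew their populations from these same transcripts, so a test between them says how a gene differs between cells already told apart by their transcripts.

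**Figure D2:**
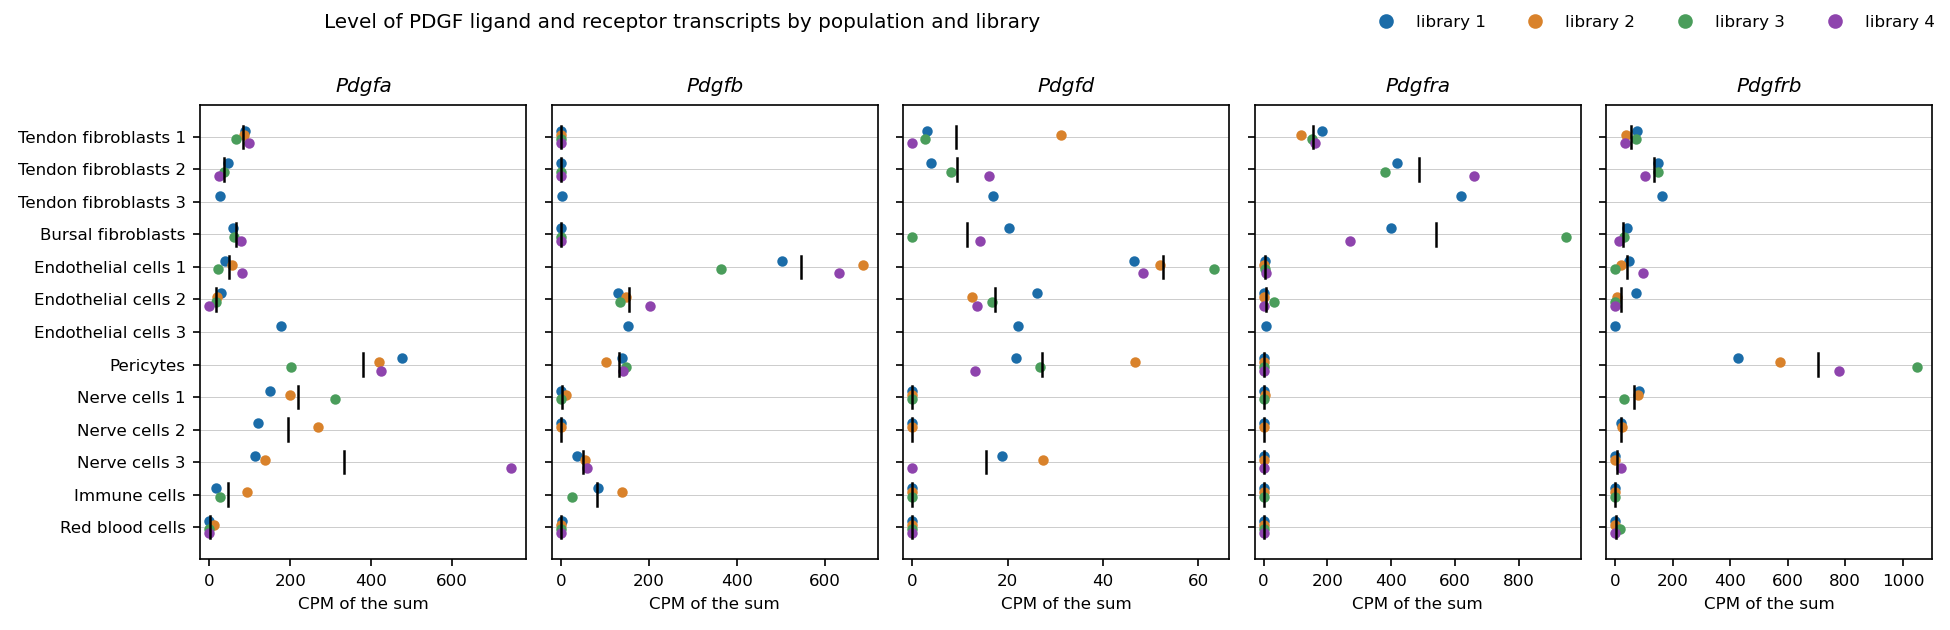
CPM of each gene (horizontal axis, linear, its own scale per panel) in each population (vertical axis), with 1 point per library and a bar at the mean of populations with more than 1 library. Pdgfb is highest in endothelial cells 1 (364 to 686 CPM), Pdgfrb in pericytes (427 to 1049 CPM) and Pdgfra in bursal fibroblasts and tendon fibroblasts 2 and 3, while Pdgfa is spread over pericytes and nerve cells.

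Pdgfb, the B chain, was an endothelial transcript in this tissue. In endothelial cells 1 its level was 503, 686, 364 and 632 CPM in libraries 1 to 4, and 86.3% of these cells (164 of 190) had a UMI. In endothelial cells 2 it was 131, 148, 135 and 203 CPM. Every library was higher in endothelial cells 1, and the ranges did not overlap. Endothelial cells 3 stood at 152 CPM in library 1. The fibroblasts were the other extreme: tendon fibroblasts 1 had 0 UMIs in 173 cells, which allows a share of cells with a UMI of up to 1.73% (3 counts of the total, a limit on cells with a UMI at this depth and not on cells that express the gene), bursal fibroblasts had 0 UMIs in 40 cells, and all 380 tendon fibroblasts together had 3. The median depth was 8824 UMIs in tendon fibroblasts 1 and 7343 UMIs in endothelial cells 1.

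Against all other cells of the same library, the endothelial cells held 411 ± 113 CPM (SD, n = 4) of Pdgfb against 27.6 ± 14.25 CPM, a log2 fold change of 3.62 ± 0.29 (SE, adjusted p = 7.2e-05 in edgeR's quasi-likelihood test with the library as a block). Within the endothelium, endothelial cells 1 exceeded endothelial cells 2 by 1.84 ± 0.19 on the log2 scale (adjusted p = 2.5e-06 in edgeR). Tendon fibroblasts had a lower level than the other cells in 4 of 4 libraries, 3 against 1490 UMIs, and the other cells had 256 times the CPM (exact 95% counting interval 87.4 to 1243, adjusted p = 1.5e-06 in edgeR).

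Pericytes held Pdgfb at 140, 102, 148 and 141 CPM, a range that overlaps that of endothelial cells 2, and immune cells at 83.4, 139 and 26.4 CPM in libraries 1 to 3. Neither differed from the other cells of their libraries by the test: the log2 fold change was -0.17 ± 0.38 for pericytes (adjusted p = 0.823) and -0.94 ± 0.40 for immune cells (adjusted p = 0.0723 in edgeR). The immune difference passed with another scaling of the libraries (RLE factors), at -1.07 with an adjusted p of 0.0286. In nerve cells 3, which hold 32 cells, 4 cells carried 7 UMIs. Nerve cells 1 to 3 together were lower than other cells, by 4.17 ± 0.58 on the log2 scale (adjusted p = 0.00091 in edgeR). In immune cells all 9 macrophage markers were found, with a sum of 9368 to 20921 CPM. Of the 4 platelet markers, genes of cells that store PDGF, Pf4, which macrophages can also express, stood at 3859 CPM in immune cells, while Ppbp, Itga2b and Gp9 were highest in red blood cells, at 57.3, 49.1 and 21.8 CPM. The part of platelet transcripts in the immune Pdgfb level was not tested.

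Endothelial transcripts were found in part of the pericytes, and most Pdgfb UMIs of pericytes lay in those cells. All 7 endothelial markers had UMIs in pericytes, with sums of 699, 545, 2124 and 1166 CPM in libraries 1 to 4, against 6289 to 7150 CPM in endothelial cells 1. The 41 pericytes with a Pdgfb UMI held 1437 CPM of these markers at a median depth of 12475 UMIs, and the 66 pericytes without one held 25.4 CPM at 7908 UMIs. These are pooled levels carried by a part of the cells: 23 of the 41 and 55 of the 66 had no endothelial marker UMI, and the median per cell was 0 in both sets. The 78 pericytes with no endothelial marker UMI held 37 of the 155 Pdgfb UMIs. Their Pdgfb level was 43.3, 66.4, 0 and 52.7 CPM in libraries 1 to 4, below that of all pericytes in each library. With pericytes limited to these cells, a setting chosen after seeing the data, Pdgfb was lower in pericytes than in other cells by 1.80 on the log2 scale (adjusted p = 0.00025 in edgeR). The pericytes left out held most of the Pdgfb UMIs, so a lower level was built into this choice and the p-value adds no support. In the same setting Pdgfa at 2.35 (adjusted p = 3.6e-06), Pdgfra at 0 UMIs and Pdgfrb at 3.18 (adjusted p = 9.8e-08 in edgeR) kept their direction and their calls. No doublet caller was run and the labels do not say how doublets were treated.

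**Figure D3:**
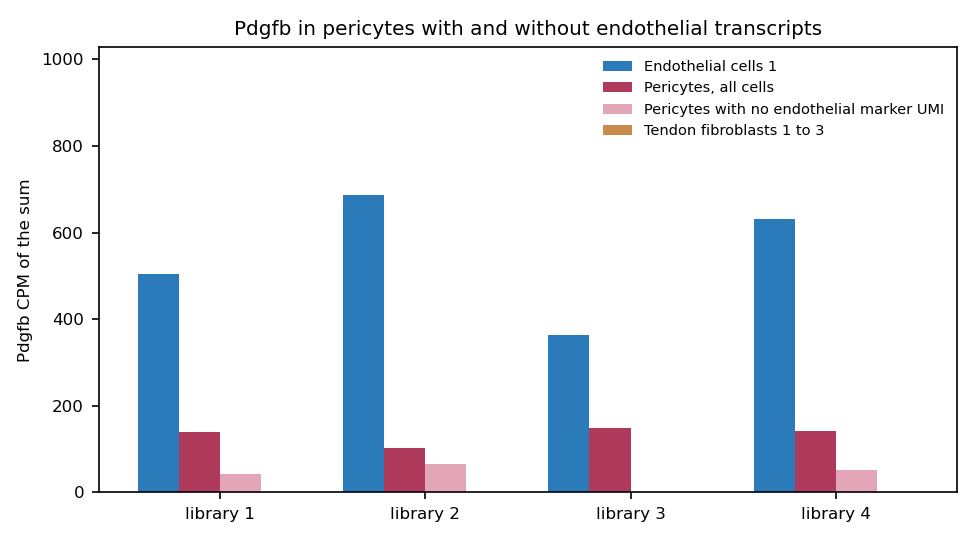
Pdgfb CPM (vertical axis, linear from 0) in each library for endothelial cells 1, all pericytes, pericytes with no UMI of the 7 endothelial markers, and tendon fibroblasts 1 to 3. All pericytes lie between 102 and 148 CPM, pericytes without endothelial marker UMIs between 0 and 66.4 CPM, and the tendon fibroblast bars are near 0.

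Pdgfd, the D chain, followed Pdgfb in the endothelium at far fewer UMIs. In endothelial cells 1 it stood at 46.5, 52.0, 63.3 and 48.3 CPM in libraries 1 to 4, in endothelial cells 2 at 26.2, 12.6, 16.8 and 13.5 CPM, and in pericytes at 21.8, 46.7, 26.9 and 13.3 CPM. Endothelial cells 1 and 2 did not overlap, while pericytes reached into the range of endothelial cells 1 in library 2. Nerve cells 1 and 2, immune cells and red blood cells had 0 UMIs. For immune cells that is 0 of 92 cells, which by the same count allows a share of cells with a UMI of up to 3.26%. With 195 Pdgfd UMIs in all, this sets no limit on the share of cells that express the gene. Endothelial cells exceeded other cells by 1.74 ± 0.33 on the log2 scale (adjusted p = 0.00476), with 4 of 4 libraries higher. Endothelial cells 1 exceeded endothelial cells 2 by 1.31 ± 0.39 (adjusted p = 0.0267 in edgeR), in 4 of 4 libraries.

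The remaining Pdgfd results rest on few UMIs. The difference between endothelial cells 1 and 2 did not pass without library 2 (adjusted p = 0.198), without library 3 (adjusted p = 0.0668) or in DESeq2 (adjusted p = 0.123). Pericytes did not differ from other cells by the test (0.56 ± 0.38, adjusted p = 0.391). Tendon fibroblasts, with 25 UMIs, were lower than other cells by 1.41 ± 0.39 (adjusted p = 0.0227), in 3 of 4 libraries. The call ended without library 1 (adjusted p = 0.169), library 3 (adjusted p = 0.0973) or library 4 (adjusted p = 0.0674). Library 2, where tendon fibroblasts stood at 22.9 CPM from 4 UMIs, was the exception in direction. Nerve cells, with 2 UMIs, were lower: other cells had 8.86 times their CPM (exact counting interval 2.42 to 73.7, adjusted p = 0.00693 in edgeR). Immune cells, with 0 UMIs, were at least 3.99-fold lower against a floor of 3 counts over the group (adjusted p = 0.00074 in edgeR). That call ended without library 1 (adjusted p = 0.377) and in DESeq2 (adjusted p = 0.0823).

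Pdgfa, the A chain, had no single main site. Pericytes held 476, 420, 202 and 424 CPM in libraries 1 to 4. Nerve cells 3 held 113, 138 and 747 CPM in libraries 1, 2 and 4, nerve cells 1 held 150, 199 and 310 CPM in libraries 1 to 3, and nerve cells 2 held 121 and 269 CPM in libraries 1 and 2. The ranges of pericytes and the nerve populations overlap, so their order by mean (380, 333 and 220 CPM in pericytes, nerve cells 3 and nerve cells 1) is not beyond the spread. All nerve cell 1 sums lay above every tendon fibroblast sum. Endothelial cells 3, with lymphatic markers, stood at 178 CPM in library 1, against 39.6 and 28.8 CPM in endothelial cells 1 and 2 of that library. No test was possible on endothelial cells 3 because only library 1 holds 5 or more of them.

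Pericytes exceeded other cells in Pdgfa by 2.15 ± 0.29 on the log2 scale (adjusted p = 0.00219) and tendon fibroblasts by 2.29 ± 0.25 (adjusted p = 3e-05 in edgeR), in 4 of 4 libraries each. Nerve cells 1 to 3 held 126, 239, 309 and 708 CPM and were higher than other cells in each library, by 1.42 ± 0.39 (adjusted p = 0.0268 in edgeR). That call ended without library 2 (adjusted p = 0.0719) or library 3 (adjusted p = 0.115). In the library with the highest value, library 4, the nerve cells were 1 cell of nerve cells 1 and 5 of nerve cells 3. The A chain was lower than in other cells in endothelial cells (-1.71 ± 0.26, adjusted p = 0.00158), tendon fibroblasts (-0.81 ± 0.17, adjusted p = 0.00695) and immune cells (-2.20 ± 0.48, adjusted p = 3.8e-05 in edgeR). The immune call ended without library 1 (adjusted p = 0.258).

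Among the fibroblasts, Pdgfa differed by population. Tendon fibroblasts 1 held 87.5, 86.0, 64.7 and 98.2 CPM in libraries 1 to 4, tendon fibroblasts 2 held 46.1, 36.0 and 24.2 CPM in libraries 1, 3 and 4, and bursal fibroblasts held 59.2, 59.8 and 78.3 CPM in the same 3 libraries. The 2 tendon populations did not overlap. Tendon fibroblasts 1 exceeded tendon fibroblasts 2 by 1.22 ± 0.29 on the log2 scale (adjusted p = 0.0319 in edgeR). The call ended without library 1 (adjusted p = 0.171), without library 4 (adjusted p = 0.0645) and in DESeq2 (adjusted p = 0.16). Bursal fibroblasts did not differ from tendon fibroblasts by the test (0.08 ± 0.32, adjusted p = 0.928).

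Pdgfra, the alpha receptor, was a fibroblast transcript. Bursal fibroblasts held 401, 947 and 271 CPM in libraries 1, 3 and 4. Tendon fibroblasts 2 held 419, 380 and 661 CPM in the same libraries, and tendon fibroblasts 3 held 618 CPM in library 1. Tendon fibroblasts 1 held 185, 117, 151 and 162 CPM, below every sum of tendon fibroblasts 2. Outside the fibroblasts few UMIs were found, 10 in 300 endothelial cells, 1 in 127 nerve cells, 1 in 92 immune cells and 0 in red blood cells. Pericytes had 0 UMIs in 107 cells, which by the same count allows a share of cells with a UMI of up to 2.80%, and not a limit on cells that express the gene. The highest endothelial sum, 33.6 CPM in endothelial cells 2 of library 3, came from 1 of 11 cells.

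Tendon fibroblasts held 328 ± 49.1 CPM of Pdgfra against 63.4 ± 62.5 CPM in other cells, a log2 fold change of 3.21 ± 0.75 (adjusted p = 0.0106 in edgeR), with 4 of 4 libraries higher. The other cells include the bursal fibroblasts. In library 2, which had no bursal fibroblast, the other cells stood at 0.481 CPM, and in libraries 1, 3 and 4, which had 30, 5 and 5 of them, at up to 149 CPM. The call ended without library 4 (3.13, adjusted p = 0.0587). Pericytes were at least 130-fold lower than tendon fibroblasts against a floor of 3 counts over the group (adjusted p = 3e-06 in edgeR) and at least 64.1-fold lower than other cells (adjusted p = 0.00118). Endothelial cells were lower than other cells by 6.00 ± 0.35 on the log2 scale (adjusted p = 1.7e-05 in edgeR). In nerve and immune cells, with 1 UMI each, other cells had 152 times (exact interval 27.3 to 6022, adjusted p = 0.00026) and 102 times the CPM (exact interval 18.2 to 4020, adjusted p = 1.3e-17 in edgeR). The immune difference had an adjusted p of 0.0106 in edgeR without the library block and 2.3e-05 in DESeq2.

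Within the fibroblasts, tendon fibroblasts 1 held less Pdgfra than tendon fibroblasts 2 in 3 of 3 libraries, by 1.28 ± 0.23 on the log2 scale (adjusted p = 0.00729 in edgeR). Bursal fibroblasts did not differ from tendon fibroblasts by the test (0.42 ± 0.38, adjusted p = 0.61). Their ranges overlap, and the bursal mean of 539 ± 359 CPM rests on library 3, where 5 cells gave 947 CPM.

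Pdgfrb, the beta receptor, was highest in pericytes, at 427, 572, 1049 and 777 CPM in libraries 1 to 4, and 93.5% of pericytes (100 of 107) had a UMI. Tendon fibroblasts 2 held 150, 150 and 105 CPM in libraries 1, 3 and 4, and tendon fibroblasts 3 held 162 CPM in library 1. Tendon fibroblasts 1 held 78.0, 39.1, 72.8 and 34.0 CPM. Pericytes lay above all other populations in every library, and tendon fibroblasts 2 lay above tendon fibroblasts 1. Nerve cells 1 held 83.4, 79.5 and 32.7 CPM and overlapped tendon fibroblasts 1. Bursal fibroblasts, high in the alpha receptor, held 42.3, 29.9 and 14.2 CPM of the beta receptor. Immune cells had 0 UMIs.

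Pericytes exceeded other cells in Pdgfrb by 3.38 ± 0.28 on the log2 scale (adjusted p = 0.00021) and tendon fibroblasts by 2.24 ± 0.33 (adjusted p = 0.00027 in edgeR), in 4 of 4 libraries each. Tendon fibroblasts did not differ from their other cells, among which are the pericytes (0.08 ± 0.37, adjusted p = 0.922). Endothelial cells were lower than other cells by 2.69 ± 0.54 (adjusted p = 0.00656) and nerve cells by 2.18 ± 0.37 (adjusted p = 0.00238 in edgeR). Immune cells were at least 25.4-fold lower against the floor of 3 counts (adjusted p = 5e-16 in edgeR, 0.00053 in edgeR without the library block and 8.8e-06 in DESeq2). Bursal fibroblasts were lower than tendon fibroblasts by 1.71 ± 0.36 (adjusted p = 0.0082 in edgeR), in 3 of 3 libraries. Tendon fibroblasts 1 were lower than tendon fibroblasts 2 by 0.92 ± 0.24 (adjusted p = 0.0447 in edgeR), also in 3 of 3 libraries. This last call ended without any of the 3 libraries (adjusted p = 0.0836 to 0.223), in DESeq2 (adjusted p = 0.364), with cells thinned to 2400 UMIs (adjusted p = 0.311) and without the library block (adjusted p = 0.0855).

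The endothelial level of Pdgfrb came from few cells. In endothelial cells 1 it was 50.4, 20.8, 0 and 96.7 CPM, from 16 of 190 cells. These 16 cells held a median of 17313.5 UMIs and 46 UMIs of 9 pericyte and smooth muscle markers (Mcam, which endothelial cells also express, was left out), against 6902.5 UMIs and 1 marker UMI in the 174 cells without Pdgfrb. All 16 also had a Pdgfb UMI, as did 164 of all 190 endothelial cells 1. The part of pericyte transcripts in this level was not tested.

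The share of cells with a UMI depends on depth, so it was also taken after thinning every cell to 2400 UMIs, which left out 114 shallower cells. At that depth 69.9% of endothelial cells 1 had a Pdgfb UMI (exact 95% interval 62.5 to 76.6), against 0% of tendon fibroblasts 1 (0 of 161). Pdgfrb was found in 65.4% of pericytes (55.4 to 74.4) against 2.84% of endothelial cells 1, and Pdgfa in 52.9% of pericytes (42.8 to 62.8) against 6.82% of endothelial cells 1. Other populations lay between these. Pdgfrb was found in 37.0% of tendon fibroblasts 3 and 25.0% of tendon fibroblasts 2. Pdgfa was found in 46.7% of nerve cells 2, 34.4% of endothelial cells 3 and 34.0% of nerve cells 1. Pdgfra was found in 67.6% of bursal fibroblasts (50.2 to 82.0), 54.7% of tendon fibroblasts 2 and 31.1% of tendon fibroblasts 1, against 1.70% of endothelial cells 1 and 0 of 104 pericytes. Pdgfd reached 11.4% in endothelial cells 1 (7.08 to 17.0). These intervals take in counting error alone and leave out the spread over libraries. Unthinned, bursal fibroblasts, the deepest population at a median of 20284 UMIs, had Pdgfrb in 47.5% of cells, which fell to 5.41% after thinning, below the 14.3% of tendon fibroblasts 1.

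**Figure D4:**
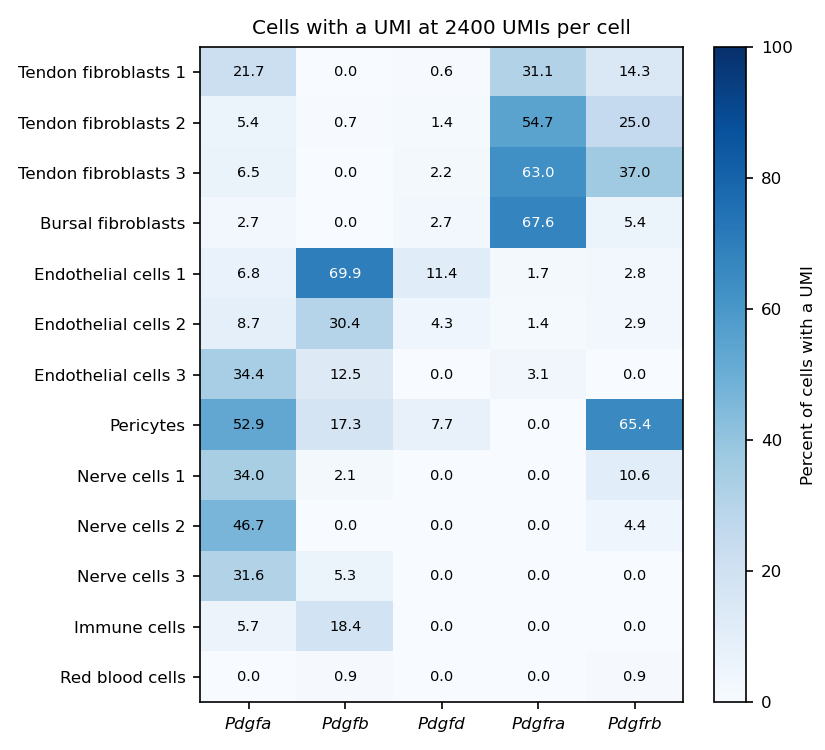
Percent of cells of each population (rows) with a UMI of each gene (columns) after thinning to 2400 UMIs, in color and in digits. The largest values are 69.9% for Pdgfb in endothelial cells 1, 67.6% for Pdgfra in bursal fibroblasts and 65.4% for Pdgfrb in pericytes.

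Cells with transcripts of 2 members were counted for 4 pairs. Both receptors were found in 92 of 156 tendon fibroblasts 2, 49 of 173 tendon fibroblasts 1, 28 of 51 tendon fibroblasts 3 and 18 of 40 bursal fibroblasts, and in 0 of 107 pericytes and 0 of 300 endothelial cells. In tendon fibroblasts 2 that is 59.0% of cells, where the product of the shares of cells with each gene is 54.9%. A ligand and a receptor it binds met in the same cell for Pdgfa with Pdgfra in 52 of 173 tendon fibroblasts 1, 41 of 156 tendon fibroblasts 2 and 23 of 40 bursal fibroblasts. Pdgfb with Pdgfrb was found in 39 of 107 pericytes, and Pdgfd with Pdgfrb in 20 of them. That is 36.4% and 18.7% of pericytes, near the products of the shares, 35.8% and 18.3%. Of endothelial cells, 19 of 300 had both Pdgfb and Pdgfrb. After thinning, both receptors were found in 22 of 148 tendon fibroblasts 2, 8 of 161 tendon fibroblasts 1, 9 of 46 tendon fibroblasts 3 and 2 of 37 bursal fibroblasts. Pdgfa with Pdgfra was then found in 11 of 161 tendon fibroblasts 1, 3 of 148 tendon fibroblasts 2 and 0 of 37 bursal fibroblasts, so the high bursal number was not seen at equal depth. Pdgfb with Pdgfrb was left in 11 of 104 pericytes and 3 of 277 endothelial cells, and Pdgfd with Pdgfrb in 4 of 104 pericytes.

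Counted over the 9 comparisons, 37 fold changes of members could be tested and 31 passed an adjusted p of 0.05. The endothelial cells differed from other cells in 5 of 5 members (2 higher, 3 lower), where 31.2% of all genes tested passed. Pericytes differed from other cells in 3 of 5 (15.3% of all genes), tendon fibroblasts in 4 of 5 (29.4%), nerve cells in 5 of 5 (21.9%) and immune cells, with 3 libraries, in 4 of 5 (25.1%). Pericytes differed from tendon fibroblasts in 4 of the 4 members tested (32.5%), with Pdgfd under the filter on low counts. Endothelial cells 1 and 2 differed in 2 of 2 (18.2%) and tendon fibroblasts 1 and 2 in 3 of 3 (8.12%). The other members fell under the filter on low counts there, and these counts depend on that filter. In endothelial cells 1 against 2, Pdgfa at 49.3 ± 25.3 against 16.1 ± 11.9 CPM and Pdgfrb at 42.0 ± 41.9 against 19.9 ± 35.7 CPM were not tested. Bursal and tendon fibroblasts differed in 1 of 3 (11.0%). The comparisons share cells, so these counts are not independent. In the immune comparison the median log2 fold change of all genes was -0.16, and in the nerve comparison -0.10, while in the other comparisons it lay between -0.05 and 0.02.

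**Figure D5:**
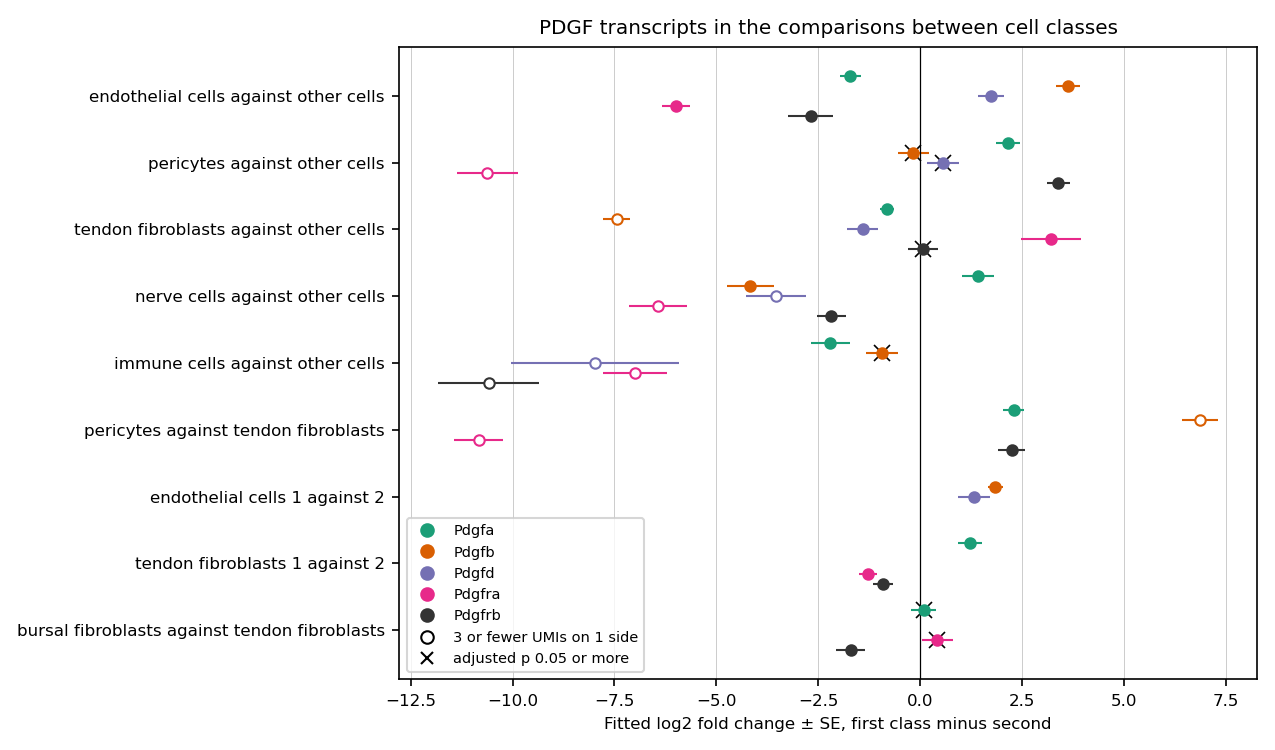
Fitted log2 fold change ± SE (horizontal axis) of each member in each comparison (vertical axis), in color by gene. Open circles mark genes with 3 or fewer UMIs on 1 side, whose fitted size depends on the model's prior count, and crosses mark an adjusted p of 0.05 or more. Pdgfb and Pdgfd lie to the right for endothelial cells, Pdgfa and Pdgfrb for pericytes and Pdgfra for tendon fibroblasts.

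Genes that act on the ligands were followed with a list of 15, which also takes in the ligand gene Pdgfc, the receptor-like gene Pdgfrl and the receptor gene Lrp1. Of the 15, 13 or 14 could be tested against other cells. In endothelial cells 4 were higher and 5 lower than in other cells, of 14 tested, where 31.2% of all genes passed, with a list median of -0.27 on the log2 scale beside -0.02 over all genes. Nrp1, a co-receptor of vascular growth factors that also binds PDGF ligands, was at 707 ± 142 CPM against 84.9 ± 34.6 CPM (2.72 ± 0.28, adjusted p = 0.00023), and Plau, the protease urokinase, which cleaves the D chain, was also among the 4. Lrp1, an endocytic receptor that associates with PDGF receptor beta, was at 8.12 ± 5.56 CPM in endothelial cells against 783 ± 384 CPM (-6.53 ± 0.52, adjusted p = 6.4e-05 in edgeR). In pericytes 0 of 14 were higher than in other cells in edgeR (0 at an unadjusted p under 0.05 and 0 in DESeq2) and 4 were lower (Lrp1, Pdgfrl, Sdc4 and Sparc), where 15.3% of all genes passed, with a median of -0.32 beside -0.05.

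In tendon fibroblasts 6 of 14 were higher than in other cells and 1 was lower, where 29.4% of all genes passed (median 0.28 beside -0.01). The same 4 genes were among the 6, and the other cells of the pericyte comparison include the tendon fibroblasts, so these counts are not independent. Pdgfc, the fourth ligand gene, was among the 6, at 33.4 ± 6.42 CPM against 9.25 ± 1.86 CPM (2.01 ± 0.26, adjusted p = 0.00045). Pdgfrl, a receptor-like gene without a kinase domain, stood at 247 ± 35.4 CPM against 5.43 ± 2.89 CPM (5.60 ± 0.32, adjusted p = 4.5e-06 in edgeR). Sparc, a matrix protein that binds PDGF-B, was also higher. In the endothelium, where Pdgfb and Pdgfd were high, Pdgfc had 1 UMI. Nrp1 was the gene that was lower in tendon fibroblasts.

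Genes that bind the activated receptors or pass the signal on were followed with a list of 16. Between pericytes and tendon fibroblasts, the classes with the most Pdgfrb and Pdgfra, 0 of 12 tested passed in edgeR, where 32.5% of all genes passed (1 at an unadjusted p under 0.05 and 0 in DESeq2), with a median of 0.12 beside 0.01 over all genes. Against other cells, pericytes had 0 higher and 1 lower of 15 in edgeR (the adaptor Nck1, -1.43 ± 0.33, adjusted p = 0.0232), where 15.3% of all genes passed. At an unadjusted p under 0.05, 2 were higher and 4 lower, and in DESeq2 0 were higher and 1 lower. Endothelial cells had 4 higher and 1 lower of 15, a share near the 31.2% of all genes that passed, so the count says nothing particular about the list. Of these, Plcg1, phospholipase C gamma, was at 126 ± 14.2 CPM against 25.4 ± 8.87 CPM (1.97 ± 0.26, adjusted p = 0.00074), and Pik3r1, the regulatory subunit of phosphoinositide 3-kinase, at 92.8 ± 18.9 against 223 ± 72.1 CPM (-1.60 ± 0.20, adjusted p = 0.00054 in edgeR). Pik3r1 was also lower in tendon fibroblasts 1 than in tendon fibroblasts 2 (-1.40 ± 0.25, adjusted p = 0.00802) and in bursal than in tendon fibroblasts (-2.51 ± 0.40, adjusted p = 0.00146 in edgeR).

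Of 12 genes that damp or end receptor signalling, 2 were higher and 0 lower in pericytes than in other cells in edgeR (lower were 1 at an unadjusted p under 0.05 and 1 in DESeq2), with a median of 0.39 beside -0.05 over all genes. That share is near the 15.3% of all genes that passed. Errfi1, a feedback inhibitor of receptor tyrosine kinases, stood at 635 ± 274 CPM against 149 ± 66.6 CPM (1.92 ± 0.38, adjusted p = 0.0124), and Spry4, a Sprouty inhibitor of the Ras pathway, was the other. Against tendon fibroblasts, 4 of 10 were higher in pericytes in edgeR (Cbl, Errfi1, Ptpn1 and Spry4) and Cblb was lower, where 32.5% of all genes passed. In DESeq2 3 were higher and 0 lower. Spry4 was at 99.5 ± 44.5 CPM in pericytes and 10.8 ± 1.35 CPM in tendon fibroblasts (2.71 ± 0.34, adjusted p = 7.1e-05 in edgeR). Several of these genes are also known to respond to other growth factors. In bursal fibroblasts Errfi1 was higher than in tendon fibroblasts (853 ± 536 against 153 ± 37.0 CPM, 2.11 ± 0.41, adjusted p = 0.00522), and Spry1 had 0 UMIs and was at least 14.5-fold lower (adjusted p = 0.0013 in edgeR).

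For each member, the 5 genes with the most similar pattern were named by the Pearson correlation of log2(CPM + 10) over 32 sums with 10 or more cells from 13 populations, among 7254 genes with 200 or more UMIs. The sums share libraries and depth, and many genes set a population apart, so high values are common and are given as a description. Pdgfb was most like S1pr1, the sphingosine-1-phosphate receptor of endothelial cells (r = 0.929), followed by F11r, Cd93, Rasgrp3 and Gimap6. Pdgfd was most like Efnb2 (r = 0.883), an ephrin ligand gene of the arterial list that was highest here in endothelial cells 3 (456 CPM). The chemokine gene Cxcl12, Tmem140, Kitl and Elovl5 followed for Pdgfd. Pdgfra was most like Tmem45a (r = 0.936), then the proteoglycan Dcn, Clec3b, Lum and the estrogen receptor gene Esr1. Pdgfrb was most like the L-type calcium channel gene Cacna1c (r = 0.848), then Sgip1, Slit3, the endothelin receptor gene Ednra and Ebf2. Pdgfa was most like Crtc3 (r = 0.879), then Prpsap1, the dystrophin gene Dmd, Inpp5a and Cbx6. With log2(CPM + 1), 2 of the 5 genes were named again for Pdgfa, Pdgfd and Pdgfra and 3 for Pdgfb and Pdgfrb.

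The start regions of 3 members with different main sites, the pericyte and nerve ligand Pdgfa, the endothelial ligand Pdgfd and the fibroblast receptor Pdgfra, are shown so that their sequence can be read beside their levels. Each is the 250 bases before a transcript start of RefSeq on GRCm38.p6 (the assembly of mm10), 5' to 3' on the gene's strand. They lie upstream of the gene and hold no coding exon of it. Capitals mark matches to 4 short motifs searched on both strands: the GC box GGGCGG, the TATA box TATAAA, the ETS core CCGGAA and the E-box CACGTG.
Pdgfa, chr5:138994945-138995194, minus strand: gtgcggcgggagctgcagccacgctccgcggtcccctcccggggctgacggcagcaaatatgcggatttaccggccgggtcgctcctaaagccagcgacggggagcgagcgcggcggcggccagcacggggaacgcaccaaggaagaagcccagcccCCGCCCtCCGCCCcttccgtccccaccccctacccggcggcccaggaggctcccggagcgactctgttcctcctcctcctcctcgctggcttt
Pdgfd, chr9:6168236-6168485, plus strand: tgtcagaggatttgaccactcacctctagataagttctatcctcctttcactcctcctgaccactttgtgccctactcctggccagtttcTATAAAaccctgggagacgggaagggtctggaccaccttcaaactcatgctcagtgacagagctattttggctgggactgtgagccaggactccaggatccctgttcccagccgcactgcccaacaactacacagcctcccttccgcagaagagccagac
Pdgfra, chr5:75152001-75152250, plus strand: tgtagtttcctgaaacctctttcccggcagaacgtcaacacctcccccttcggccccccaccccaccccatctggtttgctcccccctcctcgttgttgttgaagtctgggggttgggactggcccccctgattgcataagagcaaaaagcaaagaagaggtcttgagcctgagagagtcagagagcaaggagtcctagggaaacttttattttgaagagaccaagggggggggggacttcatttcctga
The Pdgfa window holds 2 GC boxes on the opposite strand and is 72.4% G and C, against a median of 52.4% over 32817 windows of the same length. The Pdgfd window holds 1 TATA box and the Pdgfra window none of the 4 motifs, at 53.6% and 54.4% G and C. A GC box is in 32.7% of all windows, a TATA box in 12.4%, an ETS core in 12.0% and an E-box in 6.02%. A match is a description of the letters, not of a bound factor. RefSeq gives a second Pdgfa start, at 138994281, whose window holds 1 GC box.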

How the data were processed

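Single-cell RNA was measured in 4 libraries with version 3 of the 10x Genomics 3' chemistry, per the labels' protocols. The authors deposited a raw count of UMIs per gene and cell and a table of each cell's library and population, per the file headers. Cell Ranger, Seurat 2.3.4, R 3.5.2 and mm10 are named in the submitters' processing notes, with no role or order. Of 15750 entries, 4 with a repeated gene name, with 0.0186% of UMIs, were left out. No cell was removed and no doublet caller was run. The deposited normalized values were not used here.

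Counts were summed per library and class (5 or more cells, 3 or more libraries) and tested in R 4.3.3 with edgeR 4.0.16 (limma 3.58.1): quasi-likelihood test, TMM, filterByExpr, Benjamini-Hochberg adjustment over all genes tested in a comparison, library as a block. Both sums of a library come from the same library, which is the source of the pairing. The correlation of their deviations across genes ran from -0.07 to 0.17. Where a side had 0 UMIs the fold is a bound against 3 counts over the group, and with 1 to 3 UMIs a CPM ratio with an exact 95% interval. Intervals and floors cover counting error only. The test was also run on simulated counts in which 200 genes had a log2 change of 2. These were drawn with the same spread setting for every gene and no library effect beyond depth, so recovery in the real counts can differ. The endothelial comparison recovered 88.0% (9385 genes) and the pericyte comparison 78.5% (8530 genes). The immune comparison recovered 43.0% (9700 genes) and the bursal comparison 67.5% (6136 genes). Alternatives were DESeq2 1.42.0, RLE factors, no filter, 10 cells per sum, thinning to 2400 UMIs, no block, no red blood cells and each library left out.

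Named genes are the members, the 5 most correlated genes of each, and per pathway list and comparison the called gene with the largest change in each direction at 20 CPM or more. Genes listed beside a count of 5 or fewer, and Plau, Pdgfc, Sparc and Spry4 in single comparisons, were named after their values were seen. The members and lists were chosen with earlier results of these data known. Promoter windows were read from RefSeq on GRCm38.p6. Pdgfrb was left out of this lookup, and 3 of the other members matched. Tables and plots were made with matplotlib 3.10.9, pandas 2.3.3, numpy 2.4.6 and scipy 1.17.1 under python 3.11.15.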

Additional observations from a re-analysis of the deposited data

Results flagged for a closer look

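In 9 of 45 sets of 4 library values for a member in a population, 1 library stood apart from the other 3, with a gap above 0.829 of the whole range. Chance alone flags about 1 in 20 such sets, and at low counts a single cell can set a library apart. Most of these values come from populations where the gene is at or near 0.

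Pdgfb in nerve cells 1 to 3 was 57.4 CPM in library 4, against 7.64, 6.99 and 0 CPM in libraries 1 to 3. That library held 5 nerve cells 3 and 1 nerve cell 1, and its value rests on 3 UMIs. Pdgfd in tendon fibroblasts 1 was 31.3 CPM in library 2, against 3.18, 2.70 and 0 CPM, and in tendon fibroblasts 1 to 3 it was 22.9 CPM in library 2, against 4.75 to 5.86 CPM. Library 2 held 9 tendon fibroblasts 1, and both values rest on the same 4 UMIs. Pdgfrb in endothelial cells 2 was 73.3 CPM in library 1, against 6.28, 0 and 0 CPM.

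Pdgfra in endothelial cells 2 was 33.6 CPM in library 3 and 0 in the other libraries, and in nerve cells 1 to 3 it was 1.75 CPM in library 2 and 0 in the others. In red blood cells, Pdgfa was 10.1 CPM in library 2, Pdgfb 3.44 CPM in library 1 and Pdgfrb 18.5 CPM in library 3, with 0 in the other libraries for each.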

How the results depend on the processing

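Of 366 values of the 37 member fold changes under other settings, 335 kept their direction and their side of the threshold, 21 lost and 2 gained a call, and 8 changed sign. Where no value is given for a cause, the cause was not tested. All sign changes were in differences that had no call. The Pdgfb difference of pericytes ran from -0.54 to 0.16 with a library left out (0.16 without library 2 and 0.01 without library 4). It gained a call, at -1.80, in pericytes without endothelial marker UMIs, where 1999 genes were called. That choice of cells left out most Pdgfb UMIs of pericytes, so a lower level was built into it. The Pdgfrb difference of tendon fibroblasts against other cells ran from -0.20 to 0.56 (-0.20 and -0.10 without libraries 1 and 2) and was -0.036 with thinned cells. The bursal differences ran from -0.0086 to 0.092 for Pdgfa (-0.0086 without library 1) and from -0.16 to 0.85 for Pdgfra (-0.16 without library 3). The immune Pdgfb difference gained a call with RLE factors, at -1.07.

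Leaving out a library ended 8 calls, and the ranges are over all libraries left out in turn. For tendon fibroblasts Pdgfd ran from -1.73 to -1.18 (no call without library 1, 3 or 4) and Pdgfra from 2.44 to 3.997 (without library 4). Pdgfa ran from 1.10 to 1.77 for nerve cells (without library 2 or 3). For immune cells Pdgfa ran from -2.65 to -1.49 and Pdgfd from -8.30 to -7.16 (both without library 1). Pdgfd ran from 1.06 to 1.90 for endothelial cells 1 against 2 (without library 2 or 3). For tendon fibroblasts 1 against 2, Pdgfa ran from 1.03 to 1.44 (without library 1 or 4) and Pdgfrb from -1.12 to -0.85 (without library 1, 3 or 4). DESeq2 ended the calls of Pdgfd in immune cells (-4.003) and between endothelial cells (1.448), and of Pdgfa (1.31) and Pdgfrb (-0.96) between tendon fibroblasts 1 and 2. Thinning ended the last of these too (-0.69).

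Without the replicate block, the Pdgfrb difference between tendon fibroblasts 1 and 2 lost its call (-0.93, adjusted p = 0.0855) and that of tendon fibroblasts against other cells was -0.00049. The block changed no other call of a member.

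The number of genes called moved more. Thinned cells, which leave fewer genes to test, gave 1320 of 4223 (endothelial), 682 of 2671 (pericytes), 1330 of 4382 (tendon fibroblasts), 1185 of 5226 (immune), 480 of 979 (pericytes against tendon fibroblasts), 294 of 1039 (endothelial cells 1 against 2) and 266 of 2052 (tendon fibroblasts 1 against 2). With no filter the counts were 2337 for pericytes, 3087 for nerve cells, 1073 for tendon fibroblasts 1 against 2 and 1135 for bursal fibroblasts. DESeq2 called 1486 (immune), 570 (endothelial cells 1 against 2) and 371 (tendon fibroblasts 1 against 2). With a library left out the counts were 544 (without library 1) to 1610 for pericytes, 965 (without library 2, and 1181 without library 1) to 2670 for nerve cells, 912 (without library 1) to 2907 for immune cells, 484 (without library 2, and 616 without library 1) to 997 for endothelial cells 1 against 2 and 362 (without library 1) to 529 for tendon fibroblasts 1 against 2.

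Unthinned, the shares of cells with a UMI were 86.9% (Pdgfa, pericytes), 86.3% (Pdgfb, endothelial cells 1), 34.7% (Pdgfd, endothelial cells 1), 95% (Pdgfra, bursal fibroblasts) and 93.5% (Pdgfrb, pericytes). The Pdgfd level of endothelial cells 1 was 43.7 CPM in thinned cells. A minimum of 10 cells was not run for the immune, tendon fibroblast 1 against 2 and bursal comparisons, nor thinning for the bursal comparison, because fewer than 3 libraries remained. Depth limits Pdgfd most, with 195 UMIs in all.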

Other observations

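Pericytes were split by whether a cell had a UMI of Kcnj8 or Abcc9, subunit genes of a potassium channel found in pericytes, and the values are given with no test. Abcc9 was not particular to pericytes here, with its highest pooled level in tendon fibroblasts 3 (111 CPM). The split was chosen after the data were seen and it depends on depth, with a median of 9660 UMIs in the 32 cells with such a UMI and 8963 in the 75 without. Pdgfrb was at 426, 762, 1217 and 1110 CPM in libraries 1 to 4 in the cells with a UMI, and at 427, 442 and 359 CPM in libraries 1, 2 and 4 in those without, where library 3 had only 3 cells. The 2 sets were alike in library 1 and apart in libraries 2 and 4. Rgs5, a pericyte marker, was at 3453, 4829, 8636 and 5400 CPM in the cells with a UMI and at 1249.5, 717 and 459 CPM in those without, without overlap. Myh11, a smooth muscle myosin, was at 4777, 4592, 575 and 650 CPM against 6030, 7402 and 8156 CPM, so that its difference was small in library 1 and large in library 4. Pdgfa was at 388, 359, 135 and 420 CPM in the cells with a UMI and at 497, 461 and 429 CPM in those without. Pdgfb was at 151, 151, 186 and 222 CPM against 137, 68.7 and 39.9 CPM, close in library 1 and apart in libraries 2 and 4.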
